A study of Mus musculus with 12 samples.

Results

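Of the receptors through which myeloid cells sense chemokines and other chemoattractants, 9 genes were examined in BV-2, a mouse microglial cell line. Microglia are macrophages that live in the brain. The genes are Cx3cr1, Cxcr4, Ccr1, Ccr2, Ccrl2, Gpr183, C5ar1, Fpr1 and Fpr2, chosen as named genes and matched to the array through RefSeq accessions, which gave 14 of the 41174 distinct probes. Of the 9 genes, 7 were among the 19323 genes and transcripts bright enough to be tested, and Ccr1 and Ccr2 were not.

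The question was what curcumin, a polyphenol of turmeric, does to gene expression in microglia. Cells received LPS (100 ng/ml lipopolysaccharide, a bacterial cell wall component sensed by Toll-like receptor 4) with 20 µM curcumin, LPS alone, curcumin alone, or nothing, with 3 arrays per group. The treatments lasted 6 h per the labels, which state neither a vehicle nor a time for the untreated cells. All groups are 1 cell line, and nothing in the labels says that the 3 replicates came from separate cultures, so p-values measure only the spread between these samples, which may be technical.

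Chemokine receptors are receptors with a bundle of membrane-spanning helices that signal mainly through inhibitory G proteins and steer cells along a gradient of their ligand. In microglia they take part in the response to neurons and the recruitment of other leukocytes. The classical receptors Cx3cr1, Cxcr4, Ccr1 and Ccr2 bind chemokines. C5ar1 binds the complement fragment C5a, and Fpr1 and Fpr2 bind formylated peptides of bacteria and mitochondria. Gpr183 (EBI2) binds oxidised cholesterol, and Ccrl2 is an atypical receptor that binds chemerin without signalling itself.

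The share of spots flagged well above background was 58.0% to 65.9% per array, and no spot was saturated. The number of arrays limits the precision. Of 10 macrophage markers 9 were on the array, and all 9 were well above background on every array. No group had any of the 5 astrocyte markers well above background on its 3 arrays, and Gfap and Aldh1l1 were on no array. Of the 5 neuron markers 2 or 3 were on all 3 arrays of each group, with Snap25 and Map2 on none, as were 1 to 3 of the 5 oligodendrocyte and 1 or 2 of the 5 endothelial markers. Of the 4 neutrophil markers on the array Elane and S100a9 were on none, and the other 2 were on all 12. Of the 6 lymphocyte markers 3 or 4 were on all 3 arrays of each group. The summed intensity of the astrocyte markers was 12.4 to 29.8 in LPS+curcumin, 12.4 to 21.4 in LPS, 10.2 to 16.1 in curcumin and 9.81 to 15.9 in untreated cells. That of the neuron markers was 143 to 734 in LPS+curcumin, 146 to 248 in LPS, 236 to 508 in curcumin and 133 to 206 in untreated cells. For the oligodendrocyte markers the sum was 223 to 480 in LPS+curcumin, 218 to 305 in LPS, 264 to 334 in curcumin and 219.6 to 326 in untreated cells. For the endothelial markers it was 1075 to 3676 in LPS+curcumin, 3218 to 3555 in LPS, 2415 to 3105 in curcumin and 3374 to 3739 in untreated cells. The summed intensity of the 4 neutrophil markers was 66.4 to 253 in LPS+curcumin, 62.8 to 71.9 in LPS, 211 to 292 in curcumin and 54.3 to 63.6 in untreated cells. That of the 6 lymphocyte markers was 79.7 to 190 in LPS+curcumin, 67.9 to 81.0 in LPS, 97.3 to 127 in curcumin and 56.8 to 69.7 in untreated cells. The part of these markers in the results was not tested. LPS+curcumin replicate 1 stood apart, with a mean correlation of 0.944 with its own group against 0.982 with the LPS arrays. LPS+curcumin replicates 2 and 3 had 0.969 and 0.956 with their own group, and 0.939 and 0.922 with the LPS arrays. LPS+curcumin replicate 2 carried 1594 outlier spots, against at most 163 on the other arrays. Each slide held 1 array of each group, always at the same position, so group and position cannot be told apart.

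The start regions of all 9 genes were read from RefSeq (GRCm38.p6), 250 bases before each annotated start and 50 after it, on both strands. The motifs searched were the NF-kB site by its name, the interferon-stimulated response element (GAAA, any 2 bases, GAAA), the STAT site TTCNNNGAA, the AP-1 site TGANTCA and the PU.1 site GAGGAAG. Only 3 genes held a match. These 3 are shown without the bases after the start, with the matches in capitals.
Ccrl2 (chr9:111057519-111057768, minus strand): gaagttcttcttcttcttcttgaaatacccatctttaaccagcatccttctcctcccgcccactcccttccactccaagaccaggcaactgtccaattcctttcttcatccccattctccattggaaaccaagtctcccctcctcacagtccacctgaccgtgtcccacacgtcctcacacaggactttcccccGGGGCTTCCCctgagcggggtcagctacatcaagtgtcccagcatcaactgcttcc
Fpr2 (chr17:17887574-17887823, plus strand): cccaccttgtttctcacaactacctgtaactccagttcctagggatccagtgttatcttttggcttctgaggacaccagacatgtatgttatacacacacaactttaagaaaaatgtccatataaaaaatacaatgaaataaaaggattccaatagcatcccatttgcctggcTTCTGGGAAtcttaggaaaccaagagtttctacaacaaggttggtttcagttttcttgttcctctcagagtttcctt
Ccr1 (chr9:123968693-123968942, minus strand): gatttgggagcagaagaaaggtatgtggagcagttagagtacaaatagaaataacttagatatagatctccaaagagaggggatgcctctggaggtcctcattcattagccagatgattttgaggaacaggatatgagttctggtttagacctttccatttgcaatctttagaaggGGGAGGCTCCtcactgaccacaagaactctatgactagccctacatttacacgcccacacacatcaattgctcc
In Ccrl2 the capitals mark an NF-kB site 56 to 47 bases before the first of its 3 annotated starts, which reads as a match on both strands. In Ccr1 they mark an NF-kB site 74 to 65 bases before the start. In Fpr2 they mark a STAT site 77 to 69 bases before the start, again on both strands. None of these matches overlaps another motif. Of 27025 promoters of the same length, 8.18% held an NF-kB site, 8.47% a STAT site, 3.49% the interferon element, 7.93% the AP-1 site and 13.5% the PU.1 site. A match is a run of letters and not a bound site.

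**Figure D1:**
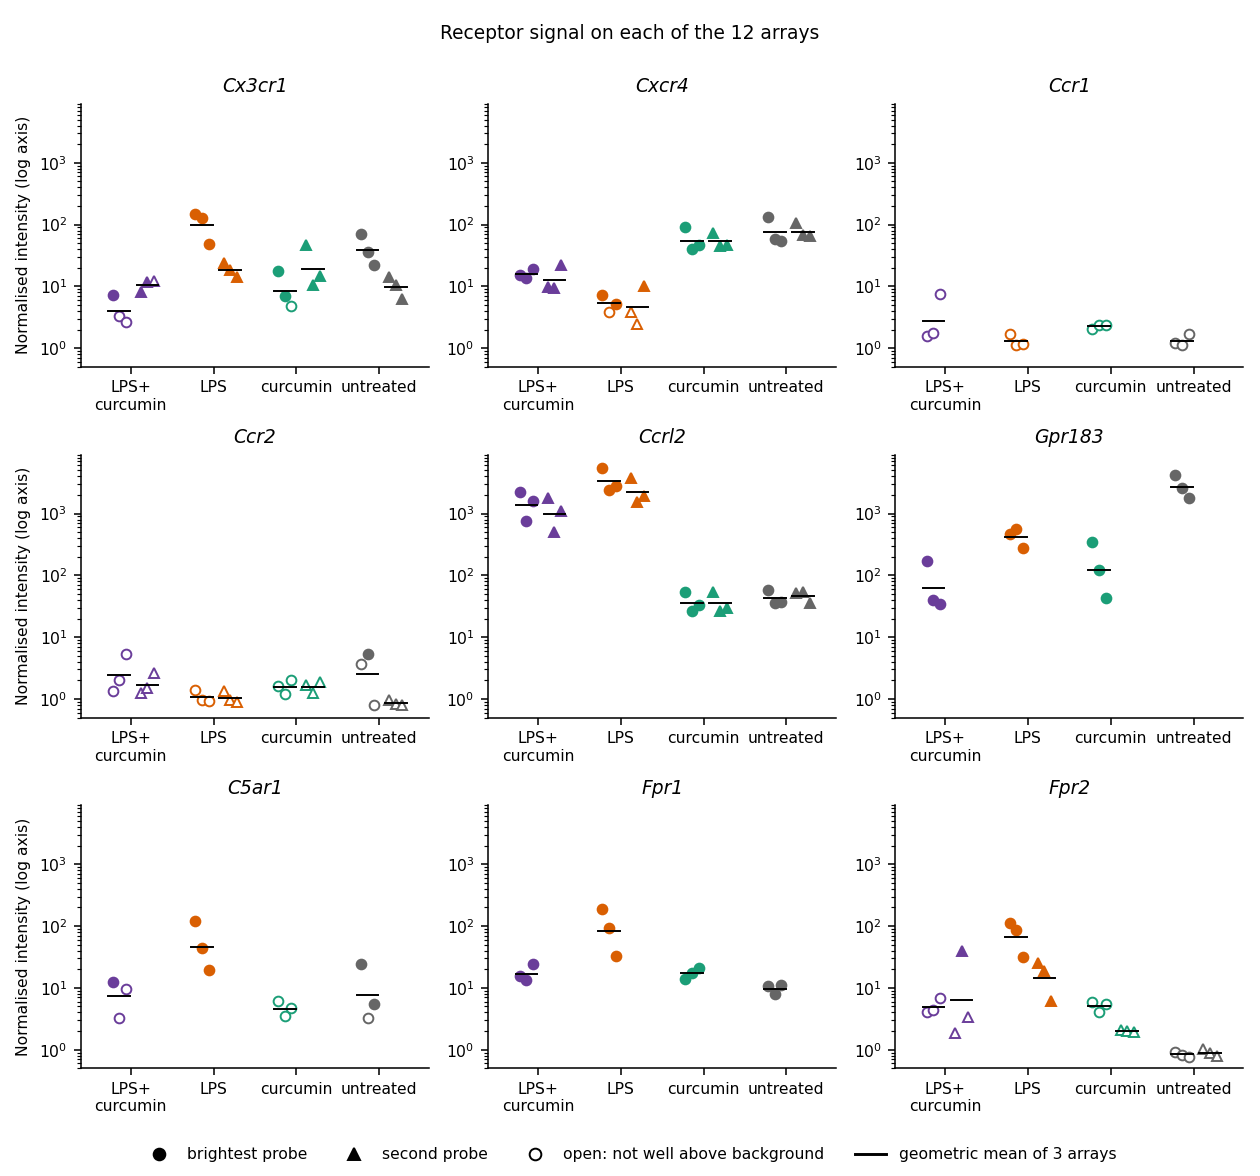
Normalised intensity (log axis) of each receptor probe on the 12 arrays, by group, with the brightest probe as circles, a second probe as triangles, open symbols for signals not well above background, and lines for the geometric mean of 3 arrays. Ccrl2 stands near 1379 and 3356 in LPS+curcumin and LPS, against 36.3 and 42.8 in curcumin and untreated cells, while Gpr183 is highest in untreated cells.

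Ccrl2, the chemerin-presenting receptor, showed the highest fold change with LPS of the receptors measured in both groups. Values are normalised intensities, the signal brought to a common 75th percentile of 676. Ccrl2 gave 5534, 2442 and 2798 with LPS, against 58.9, 35.8 and 37.1 in untreated cells. With both agents it gave 2223, 752 and 1569, and with curcumin alone 53.4, 26.9 and 33.3. The arrays with LPS, with or without curcumin, lay far above all 6 without it, every LPS+curcumin array lay below every LPS array, and curcumin and untreated arrays overlapped. Ccrl2 rose with LPS by 6.29 ± 0.443 on the log2 scale (78.5-fold; SE, n = 3 per group; adjusted p = 1.32e-05). On the single slides the rise was 6.55, 6.09 and 6.24. Ccrl2 also rose with LPS in the presence of curcumin, by 5.25 ± 0.443 (adjusted p = 0.000425). LPS+curcumin differed from LPS by -1.28 ± 0.443, which did not pass the test (adjusted p = 0.0645). That difference passed in the slide-blocked fit (adjusted p = 0.00495), without LPS+curcumin replicate 1 (-1.63, adjusted p = 0.0104), and on median (-2.02) and spike-in (-2.003) scaling. The second Ccrl2 probe had changes of 5.59 with LPS and -1.16 with LPS+curcumin against LPS. In order of level, LPS stood first and LPS+curcumin next, and curcumin and untreated cells did not differ beyond their spread (-0.24 ± 0.443, adjusted p = 0.683).

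Fpr2, a formyl peptide receptor that also takes serum amyloid and annexin ligands, was well above background on every LPS array, and by its brightest probe on no other. Its intensity was 111, 87.0 and 31.8 with LPS, against 0.924, 0.833 and 0.763 in untreated cells. It was 4.003, 4.41 and 6.99 with LPS+curcumin and 6.01, 4.15 and 5.54 with curcumin. On the brightest probe only the LPS arrays therefore carry a measured level, and the values of the other 3 groups lie at background. By this probe it rose on average at least 16.8-fold with LPS. In LPS+curcumin it was on average at least 8.33-fold lower than in LPS. These are bounds on group means, with each dim signal raised to the lowest signal well above background on its array. They do not bound each slide: that lowest signal was 12.6 on LPS+curcumin replicate 3, against 31.8 for Fpr2 on LPS replicate 3. The limma fit called both differences (adjusted p = 7.32e-06 and 0.000532). Those p-values test the signals as read, background signals included, and not these bounds. The fit also called curcumin above untreated cells, but neither group was well above background, so no change is given. The second Fpr2 probe was well above background on the 3 LPS arrays (24.9, 19.0 and 6.05) and on LPS+curcumin replicate 2 (39.7), and its difference between LPS+curcumin and LPS was -1.17 ± 0.906 (adjusted p = 0.345 over 25530 probes). By the brightest Fpr2 probe the order of levels is LPS above the other 3 groups, which have no order among them. On the second probe LPS+curcumin replicate 2 was above all 3 LPS arrays, so this order does not hold there.

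Fpr1, the formyl peptide receptor whose gene neighbours Fpr2 on chromosome 17, was well above background on all 12 arrays. It gave 191, 94.0 and 33.3 with LPS, against 10.6, 7.97 and 10.99 in untreated cells, so the groups did not overlap although the LPS arrays spread widely. With LPS+curcumin it gave 15.4, 13.5 and 24.0, and with curcumin 13.7, 17.5 and 21.1. Each of the LPS arrays was higher than every LPS+curcumin array, and LPS+curcumin and curcumin overlapped. Fpr1 rose with LPS by 3.11 ± 0.508 (8.63-fold; adjusted p = 0.00352) and fell by 2.30 ± 0.508 in LPS+curcumin against LPS (adjusted p = 0.0135). Within the slides the difference was -3.64, -2.80 and -0.47, and the call was lost without LPS+curcumin replicate 2 or LPS replicate 2 (adjusted p of up to 0.0635). LPS+curcumin and curcumin differed by -0.005 ± 0.508 (adjusted p = 0.999). Curcumin alone stood at 0.81 ± 0.508 against untreated cells (adjusted p = 0.219), a difference that turned to -0.15, -0.026 and -0.29 on quantile, median and spike-in scaling. Levels ran LPS first, then curcumin and LPS+curcumin, which did not differ beyond their spread, and untreated cells last, which did not differ from curcumin beyond the test. Probe sequences were not used here, and whether the Fpr probes also bind paralogs was not tested.

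C5ar1, the receptor of the anaphylatoxin C5a, was dim. Its intensity was 119, 43.4 and 19.6 with LPS, all well above background, against 24.5, 3.28 and 5.44 in untreated cells, where replicates 1 and 3 were above background. It was 12.2, 3.31 and 9.77 in LPS+curcumin, with replicate 1 above background, and 6.02, 3.46 and 4.73 in curcumin, with none. LPS and untreated arrays overlapped, because untreated replicate 1 exceeded LPS replicate 3, while LPS arrays were all above LPS+curcumin arrays. The difference between LPS and untreated cells was 2.62 ± 0.803 and did not pass (adjusted p = 0.0966). It passed in the slide-blocked fit (adjusted p = 0.0165) and without untreated replicate 1 (3.46, adjusted p = 0.0279). C5ar1 fell by 2.67 ± 0.803 in LPS+curcumin against LPS (adjusted p = 0.0414), a call that was lost when any of 8 single arrays was left out (adjusted p of up to 0.158). As only replicate 1 of LPS+curcumin was above background, the size of this fall rests partly on background signals. LPS stood highest, and of its differences only that from LPS+curcumin passed among those given.

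Cx3cr1, the receptor for the neuronal chemokine fractalkine and a defining gene of microglia, was lower on the arrays with curcumin by its brightest probe. Its other probe did not show this with curcumin alone, and in LPS+curcumin against LPS it was lower without passing the test. The brightest probe gave 17.5, 6.97 and 4.80 with curcumin, against 69.5, 36.4 and 22.2 in untreated cells. It gave 7.32, 3.27 and 2.70 with LPS+curcumin, against 150, 126 and 48.0 with LPS. Neither pair of groups overlapped, and curcumin replicate 3 was not well above background. Cx3cr1 fell by 2.19 ± 0.617 with curcumin (adjusted p = 0.0246) and by 4.59 ± 0.617 in LPS+curcumin against LPS (adjusted p = 0.0017). Since only LPS+curcumin replicate 1 was well above background, the size of the change against LPS rests partly on background signals. With LPS alone the change of 1.34 ± 0.617 did not pass (adjusted p = 0.332), but it was 1.11, 1.79 and 1.11 within the slides and passed in the slide-blocked fit (adjusted p = 0.00782). The second probe gave 46.4, 10.6 and 14.6 with curcumin, against 13.9, 10.46 and 6.17 in untreated cells, a difference of 0.998 ± 0.493 (adjusted p = 0.131 over 25530 probes). On that probe LPS+curcumin differed from LPS by -0.80 ± 0.493 (adjusted p = 0.24). Both probes carry the same accession, so the direction with curcumin alone differs between 2 probes of 1 gene. On the brightest probe the curcumin call did not hold without curcumin replicate 2 or 3 or untreated replicate 1 or 2 (adjusted p of up to 0.101). The change was -0.60 as the mean of both probes (adjusted p = 0.359) and 0.93 with normexp background correction. By the brightest probe, levels ran LPS, untreated, curcumin and LPS+curcumin, and neither LPS and untreated cells nor curcumin and LPS+curcumin cells differed beyond the test.

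Cxcr4, the receptor of the homing chemokine CXCL12, was the 1 receptor called lower with LPS. Its brightest probe gave 7.29, 3.85 and 5.29 with LPS (replicate 2 not above background), against 130, 59.0 and 53.8 in untreated cells. It gave 15.6, 13.4 and 19.5 with LPS+curcumin, between the LPS arrays and the curcumin arrays (90.9, 40.2 and 46.0). Each LPS+curcumin array was above all LPS arrays and below all curcumin arrays, while curcumin and untreated arrays overlapped. Cxcr4 fell by 3.82 ± 0.403 with LPS (14.1-fold; adjusted p = 0.000199). On the single slides the change was -4.16, -3.94 and -3.35. The second probe fell by 4.07 ± 0.492. In LPS+curcumin the brightest probe rose by 1.59 ± 0.403 against LPS (adjusted p = 0.0232). On the second probe the difference was 1.46 ± 0.492 and did not pass (adjusted p = 0.0583 over 25530 probes). Only LPS replicate 3 was well above background on the second probe, so the sizes of its changes rest partly on background signals. The size of the rise on the brightest probe depended on the scaling. Its call was lost on quantile (0.70), median (0.86) and spike-in (0.87) scaling, where the median of all genes was 0.037, -0.41 and -0.40. It was also lost without LPS replicate 2 or 3 or LPS+curcumin replicate 2 or 3 (adjusted p of up to 0.0908). LPS+curcumin against curcumin was -1.79 ± 0.403 (adjusted p = 0.233), which passed in the slide-blocked fit (adjusted p = 0.0386). Curcumin alone differed from untreated cells by -0.43 ± 0.403 (adjusted p = 0.399) and was called lower on spike-in scaling.

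Gpr183, the oxysterol receptor that positions immune cells, was brightest in untreated cells. It gave 346.7, 121 and 42.3 with curcumin, against 4137, 2598 and 1759 in untreated cells. With LPS+curcumin it gave 168, 40.4 and 34.9, against 467, 566 and 277 with LPS. No treated array reached the untreated range, every LPS+curcumin array was below every LPS array, and the curcumin arrays overlapped both LPS groups. Gpr183 fell by 4.46 ± 0.755 with curcumin (22.0-fold; adjusted p = 0.00271). On the single slides the change was -3.58, -4.42 and -5.38. In LPS+curcumin it fell by 2.76 ± 0.755 against LPS (adjusted p = 0.0307), a call lost without LPS+curcumin replicate 2 or 3 or any single LPS array (adjusted p of up to 0.121), and the change was -3.48 without LPS+curcumin replicate 1. The change with LPS of -2.67 ± 0.755 did not pass (adjusted p = 0.0697), and it passed in the slide-blocked fit (adjusted p = 0.00634) and without LPS+curcumin replicate 1 or curcumin replicate 1 or 3 (adjusted p of up to 0.0395). LPS+curcumin and curcumin did not differ beyond their spread (-0.97 ± 0.755, adjusted p = 0.875). In a bulk RNA sample, fewer cells carrying a transcript and less transcript per cell cannot be told apart.

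Ccr1, a receptor of CCL3 and CCL5, and Ccr2, the receptor of CCL2 that directs monocytes out of the bone marrow, were not tested. The Ccr1 probe was well above background on none of the 12 arrays, with intensities of 1.11 to 7.63. Of the 2 Ccr2 probes, one was well above background on untreated replicate 2 (5.39) and the other on no array, with intensities of 0.785 to 2.60. A signal below background is not a level, so no change is given for either gene.

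**Figure D2:**
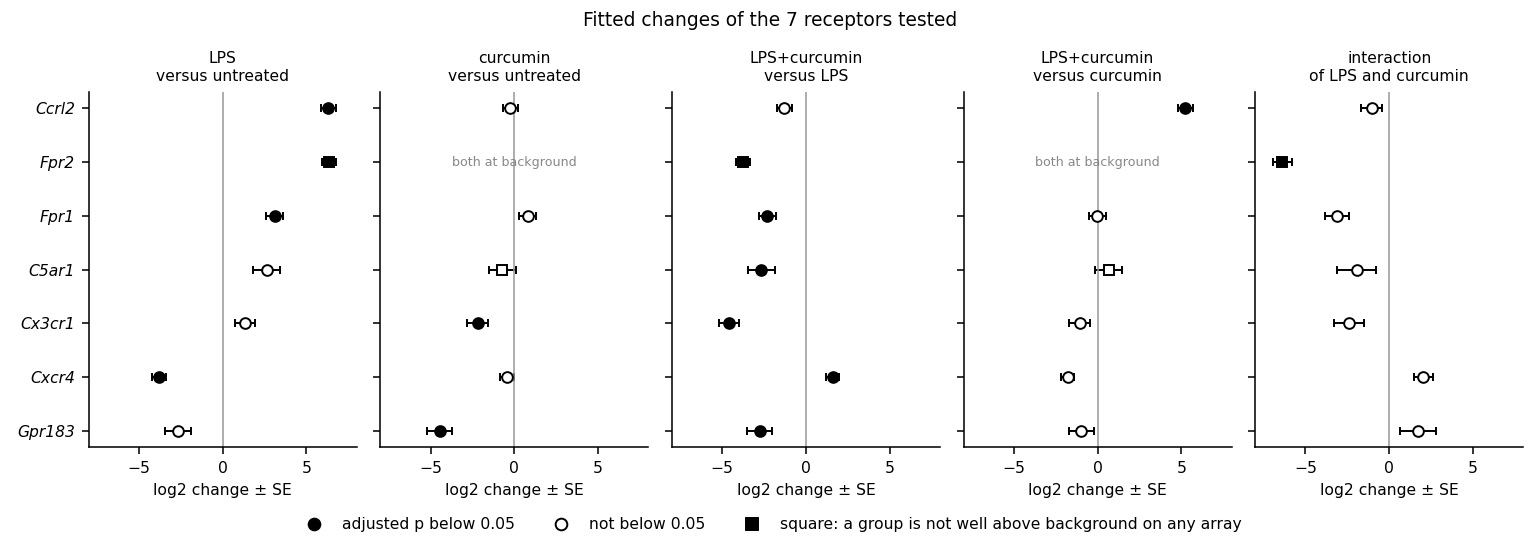
Fitted log2 changes with standard errors (n = 3 arrays per group) of the 7 receptors tested, for 5 comparisons, filled where the adjusted p is below 0.05 and square where a group is not well above background on any array, or in the interaction where 3 groups are not. Ccrl2 lies at 6.29 with LPS and 5.25 with LPS in curcumin-treated cells, and Cxcr4 lies below 0 with LPS and above 0 in LPS+curcumin against LPS.

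With LPS the atypical and formyl peptide receptors were higher and Cxcr4 was lower. Of the 7 receptors tested, 3 rose (Ccrl2, Fpr1 and Fpr2) and 1 fell (Cxcr4), against 5.73% of all genes and transcripts called in either direction, 4.12% of them higher and 1.61% lower. The groups did not overlap for these 4 and for Gpr183, against 16.8% of all genes with every LPS array higher and 15.8% with every LPS array lower. The median change of the 7 was 2.62 on the log2 scale and that of all genes 0.005. Fpr2 and C5ar1 were bright enough for testing only through the LPS arrays, where they were high. The counts and the median of the 7 therefore draw partly on that filter. With the slide as a block all 7 were called, 5 higher and 2 lower. The 4 calls were made whichever single array was left out, and with normexp only Ccrl2 was called.

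With curcumin alone Gpr183 fell and, by its brightest probe, so did Cx3cr1. In all, 3 of 7 receptors were called, with Fpr2 as the third and at background in both groups, against a background of 29.2% of all genes (22.0% higher and 7.27% lower). A share this near the background is not a result about the receptors as a group. The median of the 7 was -0.43 and that of all genes 0.42. The 75th percentile of the curcumin arrays lay lower relative to the spike-in probes, at -2.16 ± 0.153 against -1.05 ± 0.184 in untreated cells (log2, SD, n = 3 each). The median change of all genes was -0.69 on spike-in scaling, -0.42 on median scaling and -0.004 on quantile scaling, and changes with curcumin are relative to it. Gpr183 and Cx3cr1 were called lower on each of these scalings.

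With curcumin added to LPS, 5 receptors were lower and Cxcr4 was higher by their brightest probes. Cx3cr1, Gpr183, C5ar1, Fpr1 and Fpr2 fell, so 6 of 7 were called, against 18.8% of all genes (5.99% lower and 12.8% higher). Every LPS+curcumin array lay below every LPS array for 6 receptors, against 9.26% of all genes, and above for Cxcr4, against 19.4%. The median of the 7 was -2.67, and that of all genes 0.32. Because Fpr2 and C5ar1 entered the 7 only through the LPS arrays, these counts and this median draw partly on the filter for testing. Without LPS+curcumin replicate 1, all 7 were called. The count fell to 2 (Cx3cr1 and Fpr2) without LPS+curcumin replicate 2 or without LPS replicate 2, and to 3 without LPS+curcumin replicate 3. It was also 2 when only the LPS+curcumin and LPS arrays were fitted, and 0 with normexp (1 of 7 at an unadjusted p below 0.05 by limma). All these counts use the brightest probes. The second probes of Cx3cr1 (-0.80, adjusted p = 0.24), Fpr2 (-1.17, adjusted p = 0.345) and Cxcr4 (1.46, adjusted p = 0.0583) did not pass over 25530 probes.

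**Figure D3:**
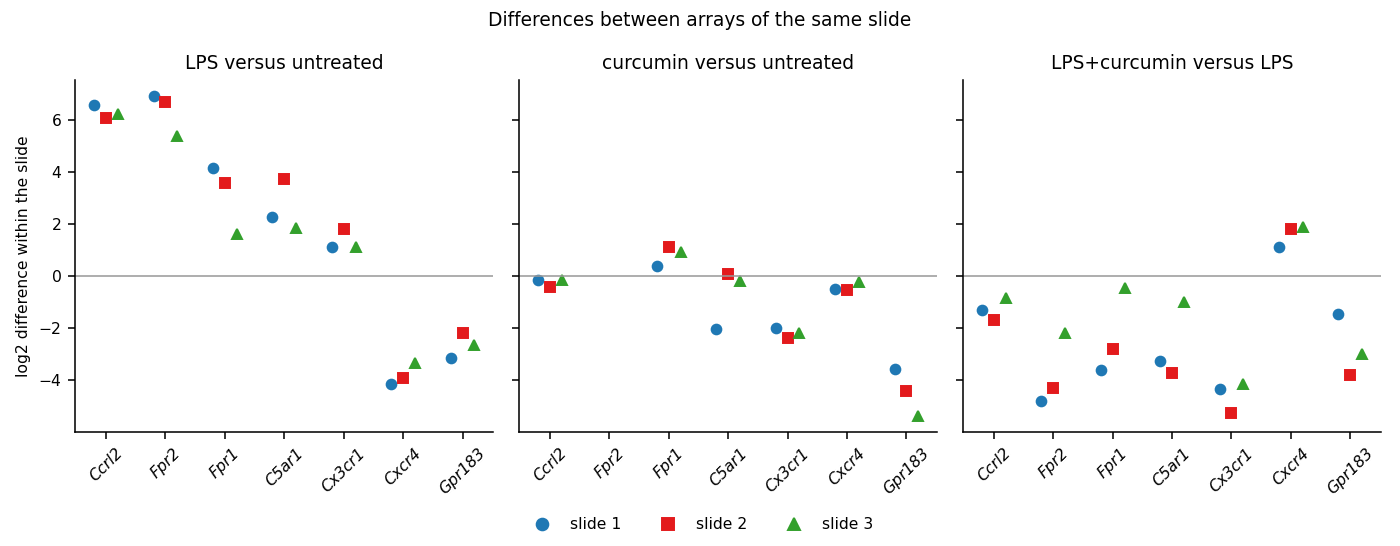
Log2 differences between arrays on the same slide for 3 comparisons and the receptors tested, with a symbol per slide and no value where both groups are at background (Fpr2 with curcumin). Only the brightest probe of each receptor is shown. With LPS+curcumin against LPS, Cxcr4 is above 0 on all 3 slides and the other 6 receptors are below 0 on all 3.

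In curcumin-treated cells LPS raised Ccrl2. It was the only one of 7 called, against 0.212% of all genes (0.202% higher). With the slide as a block Cxcr4 was called too. Every LPS+curcumin array lay above every curcumin array for Ccrl2, against 3.12% of all genes, and below for Cxcr4, against 4.62%. The interaction, the curcumin effect with LPS minus that without, was called for Fpr2 alone (-6.39 ± 0.575, adjusted p = 0.000492), against 0.719% of all genes (0.0207% higher and 0.699% lower). Since Fpr2 was at background in untreated, curcumin and, by that probe, LPS+curcumin cells, this value rests on background signals and its size is no measured fold. As Fpr2 was tested only through the LPS arrays, where it was high, its call draws partly on that filter. On the second Fpr2 probe the interaction was -2.33 ± 1.281 (adjusted p = 0.951 over 25530 probes). Fpr1 had an interaction of -3.11 ± 0.718 (adjusted p = 0.108), which passed without LPS replicate 3 (adjusted p = 0.00712). Cx3cr1 had -2.40 ± 0.873 (adjusted p = 0.499) and passed in the slide-blocked fit (adjusted p = 0.00993). Cxcr4 had 2.03 ± 0.57, opposite in sign to these 3 (adjusted p = 0.218), and passed without all arrays of replicate 1 (2.23, adjusted p = 0.0319). For Ccrl2, Gpr183 and C5ar1 the adjusted p was 1, 1 and 0.994. The comparisons share groups of arrays, so their values are not independent of each other.

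**Figure D4:**
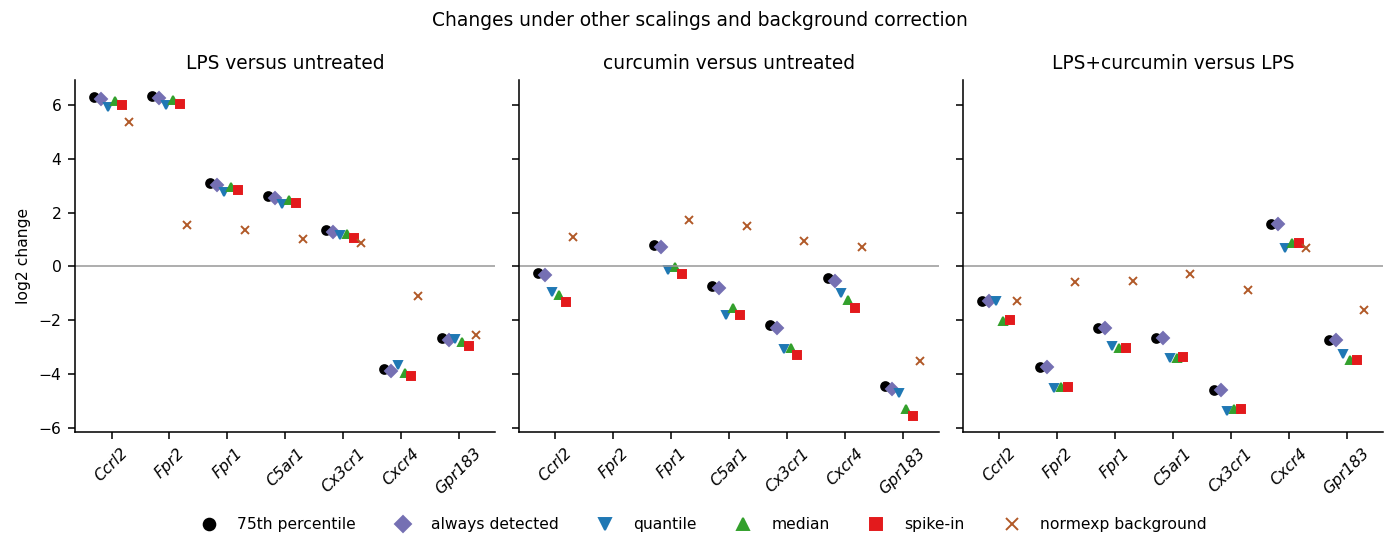
Log2 changes of the receptors tested under 5 scalings and the normexp background correction (offset 50), for 3 comparisons. Ccrl2, Fpr2, Fpr1, C5ar1 and Cx3cr1 stay above 0 with LPS under all 6 settings, and with curcumin alone normexp places every receptor shown but Gpr183 above 0.

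The ligands of these receptors, with the enzymes that make or degrade them, were counted from a list of 25 genes, 20 of them tested. With LPS 11 rose and 1 fell, against 4.12% and 1.61% of all genes, and the median change was 2.16, against 0.005 for all genes. Ccl5, a ligand of Ccr1, rose by 7.26 ± 0.370 and Ccl12, a ligand of Ccr2, by 5.27 ± 0.548. Ccl8 rose at least 8.71-fold from background, and Camp, whose peptide binds Fpr2, at least 17.9-fold. In LPS+curcumin against LPS 8 fell and 2 rose, against 5.99% and 12.8% of all genes. The median was -0.86, against 0.32 for all genes, and it was -0.51 without LPS+curcumin replicate 2 and -1.58 and -1.59 on spike-in and median scaling, where 12 fell and 1 rose. Ccl7 stood at -6.26 ± 0.709, Ccl12 at -3.86 ± 0.548 and Camp at -4.39 ± 0.594 (well above background on 1 LPS+curcumin array), and Ccl8 at least 4.31-fold lower. Without LPS+curcumin replicate 1, 11 fell and 6 rose. Ccl8 and Camp were bright enough for testing only through the LPS arrays, where they were high. The ligand counts and medians with LPS, and in LPS+curcumin against LPS, therefore draw partly on that filter.

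With curcumin alone 4 ligand genes rose and 4 fell, so 8 of 20 were called, against 29.2% of all genes (22.0% higher and 7.27% lower). Their median was 0.49, against 0.42 for all genes, and -0.61 on spike-in scaling, where all genes had -0.69. Ch25h, which makes the precursor of the Gpr183 ligand, rose at least 7.08-fold from background, and Hc, the gene of complement C5, at least 7.24-fold. Among the genes that fell, Ccl3 changed by -1.63 ± 0.240 and Ccl7 by -3.07 ± 0.709. Ccl8 counts as a rise but was at background in both groups. The total of 8 became 4 or 5 without curcumin replicate 2 or 3 or untreated replicate 1 or 2, and 13 without LPS+curcumin replicate 3. In LPS+curcumin against curcumin 3 ligand genes rose, against 0.202% of all genes, Ccl5 by 5.83 ± 0.370, Ccl4 by 3.94 ± 0.447 and Ccl3 by 2.55 ± 0.240. The interaction was called for Ccl8, Ccl12 and Camp, all lower, against 0.699% of all genes. It was called for 8 genes without LPS+curcumin replicate 1, 5 in the slide-blocked fit and 4 without LPS replicate 3. The count was 2 on spike-in and median scaling and 1 on quantile scaling. It was also 2 without LPS replicate 1 or 2, curcumin replicate 3 or untreated replicate 3. Ccl12 was well above background on all 12 arrays. Ccl8 was on LPS arrays only, and Camp on the LPS arrays and 1 LPS+curcumin array. Their interactions therefore rest on background signals and draw partly on the filter for testing.

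Across the 12 arrays, the named genes most like each receptor measured on all of them were described by Pearson's r. The points share 4 treatments and 3 slides, so genes that respond to the same treatments correlate. Ccrl2 was most like Tnf (0.992), Ccl5 (0.991) and Cxcl10 (0.989). Fpr1 was most like Il27 (0.987), Tmigd1 (0.970) and Cd38 (0.958). Gpr183 was most like Madd (0.986), Kctd12b (0.983) and Map3k1 (0.982).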

How the data were processed

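The deposited scanner files hold spot intensities of 1-colour arrays, read out by the authors with the scanner maker's Feature Extraction software. Its version was 10.5.1.1 per the file headers, whereas the submitters' processing notes give 9.1. Per the file headers, background had already been subtracted from the processed signal. The deposited value table equals it within 0.398%. Flags (well above background, outlier) are the software's.

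Outlier spots were dropped, spots of a probe averaged, and log2 intensity was set against each array's 75th percentile. The brightest tested probe stood for a gene. Testing required a flag of well above background on the 3 arrays of some group. Group means were fitted over all 12 arrays with limma 3.58.1 (R 4.3.3), with Benjamini-Hochberg adjustment over 19323 genes and transcripts and a call at an adjusted p below 0.05. The fit was tested on simulated data. P-values are two-sided. Errors of log2 changes are standard errors of the fit. A fold given as at least some value bounds the difference of group means and has no error. For it, dim signals were raised to the lowest signal well above background on their array.

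Probes were named through RefSeq accessions (assembly GRCm38.p6): 25097 of 41174 matched a symbol. Members and gene lists were chosen with earlier results of these data known. All 9 receptors are described, and of each list up to 4 called genes with the smallest adjusted p. Normexp used the median spot signal, because the files hold no mean, and added an offset of 50 to each signal. That offset is larger than many of the receptor signals, so normexp changes of dim probes depend on it. Spike-in scaling used the 8 of 10 spike-in probes with spots well above background on every array. Slide, scan and replicate number coincide. Deviations from group means correlated above 0.1 in 16 of 18 same-numbered pairs (-0.017 to 0.713), and the slide was fitted as a block as an alternative.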

Additional observations from a re-analysis of the deposited data

Results flagged for a closer look

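The fitted effect of curcumin on Fpr2 differed with and without LPS, by -6.39 on the log2 scale (limma, adjusted p = 0.000492). Within slides 1, 2 and 3 the difference was -7.50, -6.62 and -5.05. It is listed because the test of the difference between both effects passed. With single arrays left out the value was -6.93 to -6.03 and the call held, the highest adjusted p being 0.00325. It was lost with normexp (-2.46) and without all arrays of replicate 2. On the second Fpr2 probe the difference was -2.33 ± 1.281 (adjusted p = 0.951 over 25530 probes), with -4.75, -0.154 and -2.10 within slides 1, 2 and 3. Only the LPS arrays had a brightest-probe signal well above background. Curcumin and untreated cells both lay at background, so no effect of curcumin without LPS was measured. The value therefore rests on background signals and its size is no measured fold. Fpr2 was bright enough for testing only through the LPS arrays, where it was high, so the call draws partly on that filter.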

How the results depend on the processing

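Over 33 receptor changes and their alternatives, 737 of 833 values kept their direction and their side of the threshold, 58 lost the call, 21 gained it and 17 changed sign. The number of receptors called moved by over 1.5 times as follows. With normexp it was 1 for LPS versus untreated, 1 for curcumin versus untreated, and 0 by limma for the interaction and for LPS+curcumin versus either LPS or curcumin, where 4, 1 and 1 of 7 had an unadjusted p below 0.05. With probes well above background on all 12 arrays, which leaves 3 receptors, it was 2 for LPS versus untreated, 1 for curcumin versus untreated, 2 for LPS+curcumin versus LPS and 0 for the interaction (1 at an unadjusted p below 0.05). With the slide as the replicate block it was 7 for LPS versus untreated, 2 for the interaction and 2 for LPS+curcumin versus curcumin, and the block changed no receptor call beyond those named beside the results. It was 2 for LPS+curcumin versus LPS when only those groups were fitted. Over arrays or replicate numbers left out it ran from 3 to 6 for LPS versus untreated, 0 to 3 for curcumin versus untreated, 0 to 7 for LPS+curcumin versus LPS, 0 to 1 for LPS+curcumin versus curcumin and 0 to 2 for the interaction, and without replicate 2 it was 0 for curcumin versus untreated, LPS+curcumin versus LPS and the interaction (2, 4 and 3 at an unadjusted p below 0.05). Without replicate 3 it was 0 for LPS+curcumin versus curcumin (2 unadjusted). All 12 arrays deviated most like arrays of their own number.

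With normexp, signs changed for Cx3cr1 (0.93), Cxcr4 (0.71), Ccrl2 (1.08) and C5ar1 (1.52) with curcumin, for C5ar1 in LPS+curcumin versus curcumin (-0.80), and for Cxcr4 in the interaction (-0.012). The normexp offset of 50 exceeded the processed signals of Cx3cr1 (3.36 to 15), Ccrl2 (23.3 to 45.8) and C5ar1 (3.16 to 5.17) on the curcumin arrays. Those of Cxcr4 were 32.2 to 78. The part of the offset in these signs was not tested. Fpr1 with curcumin was -0.15, -0.026 and -0.29 on quantile, median and spike-in scaling. In LPS+curcumin versus curcumin Fpr1 was 0.10 on spike-in scaling, 0.032 on always detected probes, -0.25 to 0.17 with single arrays left out and 0.18 without replicate 2. C5ar1 with curcumin was -1.32 to 0.13 with single arrays left out. The cause was not tested. Signals near background limit C5ar1, Fpr2, Cx3cr1 and Cxcr4.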

Other observations

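Among 34 other chemoattractant receptors, 22 were tested. With LPS, 2 rose and 2 fell, against 4.12% and 1.61% of all genes. The lymph node homing receptor gene Ccr7 rose at least 7.06-fold from background, and Ccr9 rose by 1.96 ± 0.193. Cxcr2 and P2ry12 were well above background on no LPS array and were lower by at least 1.83-fold and 2.36-fold. The total of 4 was 2 without any single LPS array or without untreated replicate 1 or 2, and 7 without LPS+curcumin replicate 1. With curcumin alone, 9 rose and 3 fell, against 22.0% and 7.27% of all genes (5 and 6 on spike-in scaling). Ackr2, a decoy receptor of inflammatory chemokines, rose at least 6.19-fold, and Cxcr2 rose by 2.66 ± 0.486. In LPS+curcumin against LPS, 6 rose and 5 fell, against 12.8% and 5.99% of all genes. Ccr7 fell by 1.86 ± 0.287, with 1 LPS+curcumin array well above background, while Ackr2 rose at least 3.38-fold and Cxcr2 at least 3.10-fold. That total of 11 ranged from 4 to 20 over single arrays left out, with 20 without LPS+curcumin replicate 1, 4 without LPS replicate 2 or LPS+curcumin replicate 2, and 5 to 7 without LPS replicate 1 or 3, LPS+curcumin replicate 3, curcumin replicate 2 or untreated replicate 3. The interaction was called for Ccr7 (-4.54 ± 0.406) and Ccr9 (-1.75 ± 0.272), against 0.719% of all genes. It was called for 1 of them without untreated replicate 3 and on spike-in, median and quantile scaling. On spike-in scaling that was Ccr7, and Ccr9 had -1.37 (limma, adjusted p = 0.564). Ccr7 was well above background on no untreated array and on 1 array each of curcumin and LPS+curcumin, so its interaction rests on background signals. All 12 arrays measured Ccr9 well above background. Of the genes named here, Ccr7 was bright enough for testing only through the LPS arrays, and P2ry12 only through the untreated arrays. Ackr2 was so only through the curcumin and LPS+curcumin arrays. The counts of this list therefore draw partly on the filter for testing.

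Of 37 tested genes of receptor signalling, 2 rose and 1 fell with LPS, 5 rose and 3 fell with curcumin, and 1 rose and 2 fell in LPS+curcumin against LPS. Of all genes 5.73%, 29.2% and 18.8% were called in these comparisons, so the shares with LPS and curcumin were near or below the background and that in LPS+curcumin against LPS was below it. Rgs2, a regulator of G-protein signalling, fell by 2.38 ± 0.314 with curcumin and by 1.83 ± 0.314 in LPS+curcumin against LPS. Pik3cg, the kinase that receptors of this class activate, fell by 1.64 ± 0.330 and 1.72 ± 0.330 in the same comparisons. The total of 3 with LPS was 1 without LPS replicate 1 or untreated replicate 1 or 2, and 5 without LPS+curcumin replicate 1 or 3. The total of 8 with curcumin was 3 or 4 without any single curcumin or untreated array, and 21 and 19 without LPS+curcumin replicates 1 and 3. In LPS+curcumin against LPS it was 17 and 6 without LPS+curcumin replicates 1 and 3. On spike-in scaling 1 rose and 22 fell with curcumin, and 11 fell in LPS+curcumin against LPS.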
